A study of Mus musculus with 15 samples.

Results

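The drug-metabolising enzymes described here are 67 protein-coding genes of the cytochrome P450 families 2 and 3 (Cyp2, 17 genes, and Cyp3, 5), the carboxylesterases (Ces1 and Ces2, 11), the UDP-glucuronosyltransferases (Ugt, 10), the glutathione S-transferases (Gst classes a, m, o, p and t, 18) and the sulfotransferases (Sult, 6). They were taken by symbol from a table of 26844 genes: 112 protein-coding genes matched the family names, and 67 of these reached 10 normalised counts in 3 or more libraries, a filter that 14299 genes of the whole table passed. Of the 45 left out, 21 were Cyp2 and 9 were Ugt genes. All 3 Cyp1 genes were among them, with means over all libraries of 1.86 normalised counts for Cyp1a1, 0.317 for Cyp1a2 and 3.17 for Cyp1b1, so the family that responds to aryl hydrocarbon receptor ligands was near the limit of detection.

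The libraries came from distal jejunum of male C57BL/6 mice aged 13 to 15 weeks, all fed a diet with 0.08% cholesterol. WT mice were on the control diet (4 libraries) or on that diet with 0.01% ezetimibe, an inhibitor of intestinal cholesterol uptake through NPC1L1 (4 libraries). Aster-B/C global KO mice, called KO here, lack in all tissues a pair of proteins that bring plasma membrane cholesterol to the endoplasmic reticulum, and were on the control diet (3 libraries) or on ezetimibe (4 libraries). The labels do not say how long the diets were fed or that each library is a separate mouse, so the p-values rest on the spread of these libraries, which may be technical.

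Drug metabolism is usually described in phases. P450 enzymes oxidise lipophilic compounds and carboxylesterases cleave esters and amides, and the conjugating enzymes then attach glucuronic acid, glutathione or sulfate so that the products can leave the cell through transporters. Enterocytes of the small intestine carry much of this machinery, and several of its genes answer to the nuclear receptors PXR and CAR, to NRF2 and to the circadian clock.

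The libraries held 13855034 to 19307079 reads. Gramd1c, which encodes Aster-C, ranged from 1059 to 1845 normalised counts in WT and from 71.8 to 194 in KO over both diets, and Gramd1b (Aster-B) from 2274 to 4046 in WT and from 962 to 2086 in KO, with no overlap between the genotypes for either gene. Enterocyte markers were abundant: 12 listed genes summed to between 849389 and 1266340 normalised counts per library. None of the 12 was called for genotype, but all 12 were positive in KO averaged over the diets (median log2 fold change 0.21, 4 with an unadjusted p under 0.05) and all 12 on ezetimibe (0.29, 5), with 8 positive on the control diet (0.09, 2). Of 5 genes that mark ileal position, 4 were positive in KO averaged over the diets (0.59, 2), none called. Markers of other cells moved with genotype. The 14 proliferation genes summed to 1721 to 4550 in WT control, 1815 to 2820 in WT ezetimibe, 742 to 1484 in KO control and 1207 to 1678 in KO ezetimibe, and 10 of 14 were lower in KO averaged over the diets. In the same comparison 8 of 12 T and NK cell genes and 3 of 8 Paneth cell genes were lower in KO, by the same limma test. Of all genes tested 2.4% were called lower there. WT control replicate 2 stood apart in hepatocyte genes (10 genes summing to 608, against 31.6 to 108 in the other libraries), and WT control replicate 1 in pancreatic acinar genes (7 genes summing to 310, against at most 32.6). Over 7 adipocyte genes the median log2 fold change of KO over WT was 1.70 on the control diet and 1.34 on ezetimibe, and none was called. The part of these cells and of position along the gut in the values of the enzymes was not tested. Fits with the proliferation genes in the model and without each single library are given below. Proliferation did not overlap between the genotypes on either diet, so a fit with both can hardly separate them. In bulk tissue, fewer cells of a type and less RNA per cell cannot be told apart.

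Levels are DESeq2-normalised counts. Per length of exon, the most abundant member was Ces2e, a carboxylesterase, at 9785 normalised counts per 1000 exon bases as the mean of all libraries, followed by Cyp3a13 at 6290 and Ces2c at 3797. Cyp2d26 led the Cyp2 genes at 3664, Gsto1 the glutathione S-transferases at 3256, Sult1d1 the sulfotransferases at 2905 and Ugt2b34 the glucuronosyltransferases at 2535. Single genes held much of the counts of their family: Ces2e took 58.3 to 71.2% of the Ces counts in each library and Ugt2b34 took 65.5 to 75.1% of the Ugt counts. At the other end, 14 members had a mean under 50 normalised counts, among them Cyp2r1, the vitamin D 25-hydroxylase, at 14.4.

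**Figure D1:**
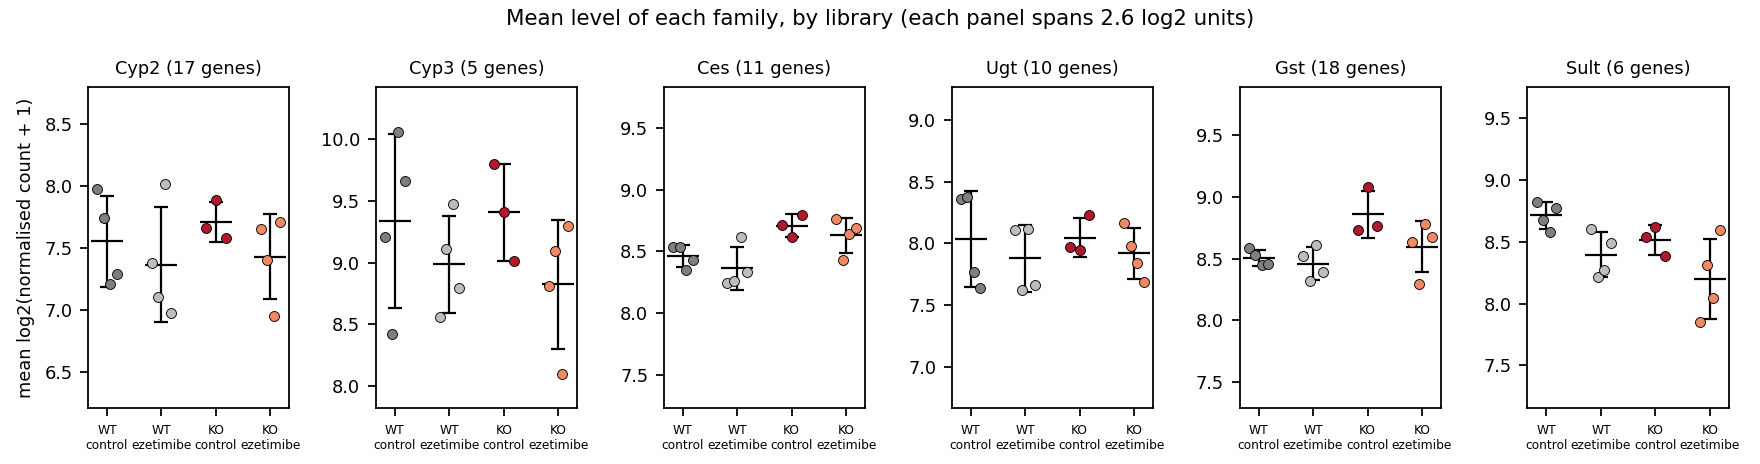
Mean log2(normalised count + 1) of the members of each family (vertical axis) in each library, by group. Points are libraries, horizontal bars are group means and error bars are 1 SD (4 libraries a group, 3 in KO control). The Gst panel shows all 3 KO control libraries above all 8 WT libraries, and the Cyp3 panel shows the wide spread inside groups.

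Genotype was compared first. Relative to WT, KO jejunum had more RNA of 4 enzymes when both diets were averaged: Cyp2j6, Ces1g, Gsto1 and Gstm2 (4 of 67, beside 1.64% of all genes tested that were called higher). No member was called lower (2.4% of all genes were). DESeq2 on the recovered reads called 8 members, all higher (3.83% of all genes were called higher). By edgeR 4 members were called, also all higher, with Gsta4 in place of Gstm2 (3.85% of all genes were called in either direction). Called means an adjusted p under 0.05 by limma, with Benjamini-Hochberg adjustment over all 14299 genes, and each log2 fold change is that of value + 1, with its standard error (SE). All 4 are described here with up to 250 bases upstream of their RefSeq start. What lies before genes that moved together can thus be read beside the values.

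Cyp2j6 encodes a P450 of the CYP2J subfamily, whose members epoxidise arachidonic acid, and lies at mm10 chr4:96516138-96553661 on the minus strand. Its normalised counts were 4567, 5425, 2889 and 2821 in WT control and 3919, 3884, 3832 and 3076 in WT ezetimibe. In KO control they were 9521, 6601 and 7786, and in KO ezetimibe 6790, 5293, 4058 and 6937. Every KO library was above every WT library of the same diet. The log2 fold change of KO over WT was 0.84 ± 0.156 (SE; limma adjusted p = 0.0179) as the mean of both diets. On the control diet alone it was 1.06 ± 0.229 and missed the threshold (limma adjusted p = 0.0600), where the authors' deposited table gives 1.02 with an adjusted p of 0.00291 for that diet.

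Ces1g, a carboxylesterase of the Ces1 cluster that hydrolyses lipid esters as well as drugs, lies at mm10 chr8:93302369-93337308 on the minus strand. Its normalised counts were 94.5, 82.6, 110.2 and 64.2 in WT control and 159.9, 166 and 131 in KO control. On ezetimibe they were 137, 102, 263 and 169.9 in WT and 338, 228, 633 and 378 in KO. The genotypes did not overlap on the control diet, and on ezetimibe WT replicate 3 lay above KO replicate 2. Ces1g was 1.01 ± 0.215 (SE) higher in KO on the log2 scale as the mean of both diets (limma adjusted p = 0.0244). On ezetimibe it is in the authors' deposited table at a log2 fold change of 1.23 (adjusted p = 0.0145), the only member there among 72 genes.

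Gsto1 is an omega-class glutathione transferase, which acts as a thioltransferase and a dehydroascorbate reductase, and lies at mm10 chr19:47854970-47864790 on the plus strand. It had 6198, 5902, 5496 and 5538 normalised counts in WT control and 8080.1, 8064 and 7038 in KO control. On ezetimibe it had 6311, 5446, 6028 and 6228 in WT and 7988, 6703, 6137 and 7648 in KO. The rise was small, with a log2 fold change of 0.42 on the control diet and 0.24 on ezetimibe. The genotypes did not overlap on the control diet and only KO ezetimibe replicate 3 fell inside the WT range on ezetimibe. The log2 fold change was 0.33 ± 0.0704 (SE; limma adjusted p = 0.0248) over both diets.

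Gstm2, a mu-class transferase of the cluster on chromosome 3 (mm10 chr3:107981702-107986453, minus strand), was a low-level gene. It had 108, 86.3, 85.5 and 107 normalised counts in WT control and 119, 156 and 148 in KO control. On ezetimibe it had 60.2, 76.1, 109 and 57.6 in WT and 115, 102, 88.7 and 124 in KO. The genotypes overlapped on ezetimibe and not on the control diet. The log2 fold change was 0.54 ± 0.141 (SE; limma adjusted p = 0.0456) over both diets. Of the 50-base stretches of its longest transcript, 9.36% also occur in other genes, so its counts may hold a few reads of relatives.

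Upstream sequence of the 4 genes, and of Ces1c and Ces1e beside Ces1g, is given from RefSeq on GRCm38.p6, 5′ to 3′ on the strand of the gene. Bases that the GENCODE M21 gene model already counts as exon were left out at the 3′ end. These were 99 in Ces1g, 10 in Cyp2j6, 3 in Gsto1 and 33 in Gstm2. Capitals mark TTATGTAA or its reverse complement, the D-box that PAR bZIP clock factors such as DBP bind. The stretches are chr8:93337309-93337459 (Ces1g), chr8:93131284-93131533 (Ces1c), chr8:93229620-93229869 (Ces1e), chr4:96553662-96553901 (Cyp2j6), chr19:47854723-47854969 (Gsto1, plus strand) and chr3:107986454-107986670 (Gstm2), with all but Gsto1 on the minus strand.
Ces1g: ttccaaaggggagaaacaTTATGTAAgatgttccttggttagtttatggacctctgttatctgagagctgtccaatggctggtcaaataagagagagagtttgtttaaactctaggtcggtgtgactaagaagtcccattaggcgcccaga
Ces1c: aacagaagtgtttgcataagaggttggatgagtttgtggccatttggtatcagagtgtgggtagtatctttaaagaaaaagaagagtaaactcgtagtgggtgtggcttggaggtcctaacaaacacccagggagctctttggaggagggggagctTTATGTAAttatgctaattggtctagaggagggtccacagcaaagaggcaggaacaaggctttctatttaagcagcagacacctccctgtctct
Ces1e: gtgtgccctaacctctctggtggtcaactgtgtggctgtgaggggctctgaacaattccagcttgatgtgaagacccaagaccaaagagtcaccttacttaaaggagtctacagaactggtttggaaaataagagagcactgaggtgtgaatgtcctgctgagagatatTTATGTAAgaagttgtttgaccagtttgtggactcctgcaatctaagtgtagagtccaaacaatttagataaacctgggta
Cyp2j6: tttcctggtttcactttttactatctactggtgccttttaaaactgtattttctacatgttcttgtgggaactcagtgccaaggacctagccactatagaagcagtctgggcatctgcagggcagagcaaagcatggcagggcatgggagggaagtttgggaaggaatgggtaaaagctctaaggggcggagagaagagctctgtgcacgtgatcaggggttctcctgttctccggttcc
Gsto1: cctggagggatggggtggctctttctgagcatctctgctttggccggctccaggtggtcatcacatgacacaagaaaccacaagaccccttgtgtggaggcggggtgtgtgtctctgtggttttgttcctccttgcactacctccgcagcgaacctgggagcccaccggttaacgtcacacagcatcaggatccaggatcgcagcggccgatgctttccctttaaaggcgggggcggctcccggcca
Gstm2: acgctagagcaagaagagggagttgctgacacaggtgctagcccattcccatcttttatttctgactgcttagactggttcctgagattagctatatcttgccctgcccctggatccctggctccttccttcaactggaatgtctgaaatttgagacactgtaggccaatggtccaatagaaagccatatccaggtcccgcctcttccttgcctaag

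The D-box starts 232 bases upstream of the RefSeq start in Ces1g, 94 bases in Ces1c and 81 bases in Ces1e. Promoters were matched for 59 of the 67 members, and 4 of the 59 held TTATGTAA on either strand in the 250 upstream bases (6.78%, the other being Ugt2b1), beside 0.862% of 27025 mouse promoters searched in the same way. Ces1c, Ces1e and Ces1g lie in one cluster of related genes on chromosome 8, so their matches may not be independent. Of the other motifs, GCGTG, the core that the aryl hydrocarbon receptor binds, was in 9 member promoters (15.3%) and in 28.2% of all promoters. The antioxidant response element TGACNNNGC was in 2 member promoters, those of Gsta3 and Gstm5 (3.39%), and in 10.1% of all promoters. Cyp2j6, Gsto1 and Gstm2 held none of the 3 motifs in this window. A match is a description of letters. Ces1c and Ces1e, which carry the D-box as Ces1g does, had log2 fold changes of −0.08 ± 0.236 (limma adjusted p = 0.883) and 0.17 ± 0.153 (limma adjusted p = 0.551) in KO over both diets, and neither passed the test. Dbp itself ranged from 49.5 to 867 normalised counts within WT control and from 41.3 to 911 within WT ezetimibe. With Dbp in the model, Ces1g had a log2 fold change of 1.01 in KO (limma adjusted p = 0.0209). Whether the D-box or the clock has a part in the Ces1g values was not tested.

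**Figure D2:**
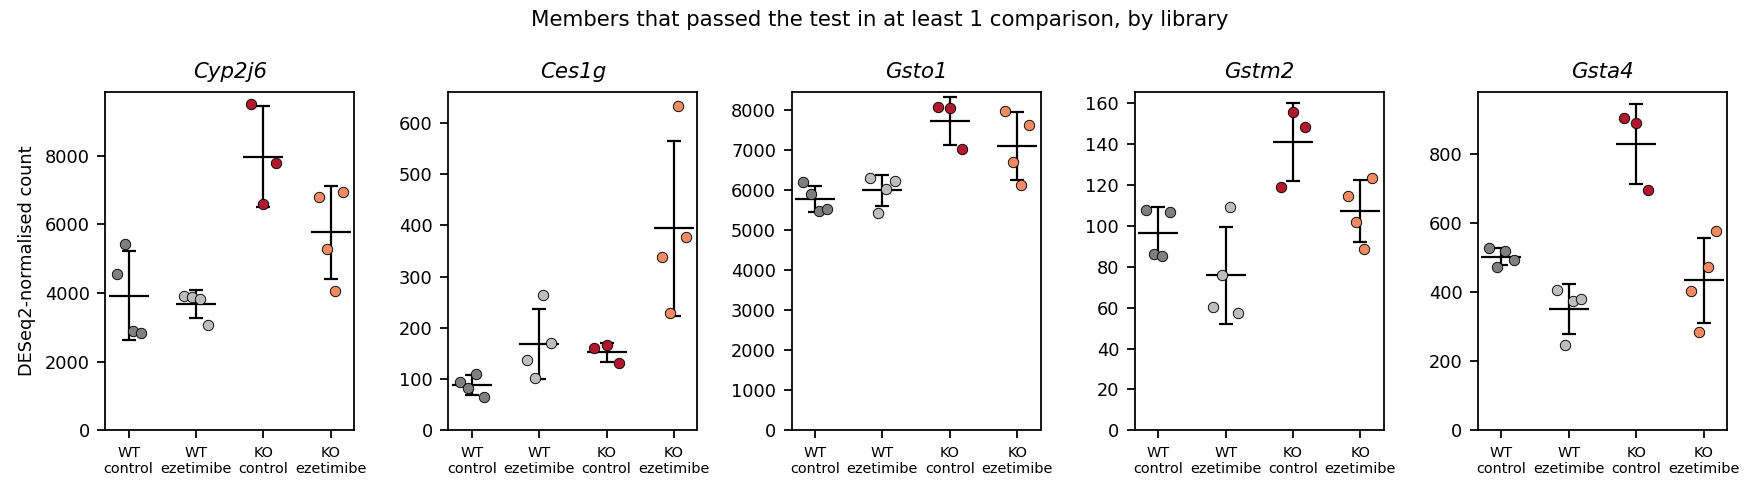
DESeq2-normalised counts (vertical axes, from 0) of the 5 members called in at least 1 comparison, by library and group. Points are libraries, horizontal bars are group means and error bars are 1 SD. Cyp2j6, Gsto1 and Gstm2 are highest in KO control, Ces1g is highest in KO ezetimibe, and Gsta4 is lower on ezetimibe than on the control diet in both genotypes.

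The calls over both diets depended on libraries, on whether the proliferation markers were in the model and, for Gstm2, on the test. Gstm2 missed the threshold with no filter on low values (limma adjusted p = 0.0679) and with edgeR (adjusted p = 0.0543). With the mean level of the 14 proliferation genes in the model none of the 67 members was called for genotype: Cyp2j6 had 0.68 (limma adjusted p = 0.281), Gsto1 0.30 (0.281), Gstm2 0.57 (0.310) and Ces1g 0.45 (0.536). That mean log2 level was 6.44 to 7.85 in WT control and 5.22 to 6.21 in KO control. On ezetimibe it was 6.52 to 7.07 in WT and 5.88 to 6.46 in KO. The fit can hardly separate that level from genotype, so the lost calls do not decide the part of proliferation. Without KO control replicate 1 no member was called either, without WT ezetimibe replicate 2 or KO ezetimibe replicate 4 only Cyp2j6 was, and without WT control replicate 1, the library high in acinar genes, 10 were. The share of all genes called in these fits is not given.

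On the control diet alone no member was called (limma; 0.371% of all genes were), with 12 higher and 0 lower at an unadjusted p under 0.05 (6.87% and 7.86% of all genes). DESeq2 on the recovered reads called 4 higher (Cyp2j6, Gsto1, Gsta4 and Gstm7; 1.45% of all genes) and edgeR called 0 (0.0839%). The authors' deposited table lists the same 4 among 424 genes. The glutathione S-transferases made up most of the shift. The fold change was positive in 17 of 18 Gst genes, and 9 of them, all higher in KO, reached an unadjusted p under 0.05, beside 49.1% of all genes tested with a positive fold change and 6.87% higher at that p. The median log2 fold change was 0.40 over the Gst genes and −0.01 over all genes. The Gst median stayed between 0.34 and 0.43 in the 18 alternative fits. It was lowest in the fit with proliferation markers, which can hardly separate them from genotype and so does not decide their part. By library, the mean log2 level of the family was 8.44 to 8.59 in WT control and 8.73 to 9.08 in KO control.

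The 9 Gst genes came from every class. In the mu class, Gstm7 had 195, 119, 175 and 152 normalised counts in WT control and 239, 229 and 255 in KO control, with no overlap (log2 fold change 0.61 ± 0.175, limma adjusted p = 0.121). Gstm2, Gstm4 (0.51) and Gstm6 (0.45) were the other mu genes at an unadjusted p under 0.05. Gsta4, an alpha-class enzyme that conjugates the lipid peroxidation product 4-hydroxynonenal, had 0.71 ± 0.204 (limma adjusted p = 0.117). The pi-class Gstp2 (0.38) and the theta-class Gstt2 (0.29) and Gstt3 (0.28) completed the set with Gsto1. Gstp2 and its neighbour Gstp1 share 72.6% and 62.3% of their 50-base stretches with other genes, so counts may have been split between them. The 1 member with a negative value was Gstm3, at −0.37 ± 0.258, the most abundant mu gene per length.

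In each of the remaining families fewer genes had an unadjusted p under 0.05 on the control diet, though the Ces median was close to that of the Gst genes. Of 17 Cyp2 genes, 11 were positive (median log2 fold change 0.17), and Cyp2j6 and Cyp2j9 had an unadjusted p under 0.05. Of 11 Ces genes 8 were positive (median 0.36, only Ces1g with a p under 0.05), and of 10 Ugt genes 6 were positive (median 0.06, none). The Ugt gene with the smallest p was Ugt1a1, the bilirubin-conjugating enzyme, at 0.24 ± 0.158 (limma adjusted p = 0.527). It shares 1311 exon bases with the other Ugt1a genes, so its reads cannot be fully separated from theirs. Sult genes had a median of −0.17 and Cyp3 genes 0.17, with no p under 0.05. Over all members, 13 did not overlap between the genotypes with KO higher (6.59% of all genes tested) and 1 with KO lower (5.57%).

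On ezetimibe no member was called for genotype by limma (0.00699% of all genes were) or edgeR (0.00699%), DESeq2 called Ces1g higher (0.357%), and 12 members were higher and 1 lower at an unadjusted p under 0.05 (8.15% and 8.3% of all genes). The genotypes did not overlap for 5 members, all higher (5.09% of all genes, and 4.84% lower). The Ces genes gave 5 of the 12: Ces1g, Ces1f, Ces2b, Ces2c and Ces2e. Ces2e had 26649, 23378, 24656 and 23572 normalised counts in WT ezetimibe and 30785, 27388, 28716 and 29391 in KO ezetimibe. All 4 KO libraries lay above all 4 WT libraries, with a log2 fold change of 0.24 ± 0.109 (limma adjusted p = 0.290). Ces2c, of which 42.2% of the 50-base stretches also occur in other genes, had 0.47 ± 0.195 (limma adjusted p = 0.276) and did not overlap either.

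Among the P450 genes on ezetimibe, Cyp2d22 had 989, 965, 1174 and 948 normalised counts in WT and 1514, 1221, 1519 and 1290 in KO. The groups did not overlap, and the log2 fold change was 0.44 ± 0.130, short of the threshold (limma adjusted p = 0.223). The low-level Cyp3a59 (0.93 ± 0.262, limma adjusted p = 0.223) had 7.43 to 11.3 normalised counts in WT and 12.8 to 22.5 in KO, and 28% of its 50-base stretches occur elsewhere, mostly in Cyp3a25. Among the conjugating enzymes, 12 of 18 Gst genes were positive (median 0.21), Ugt1a7c had 0.41 ± 0.187 (limma adjusted p = 0.293), and Gstm3 was the 1 member lower, at −0.70 ± 0.239 (limma adjusted p = 0.238). Without KO ezetimibe replicate 3 the Gst median was 0.06.

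**Figure D3:**
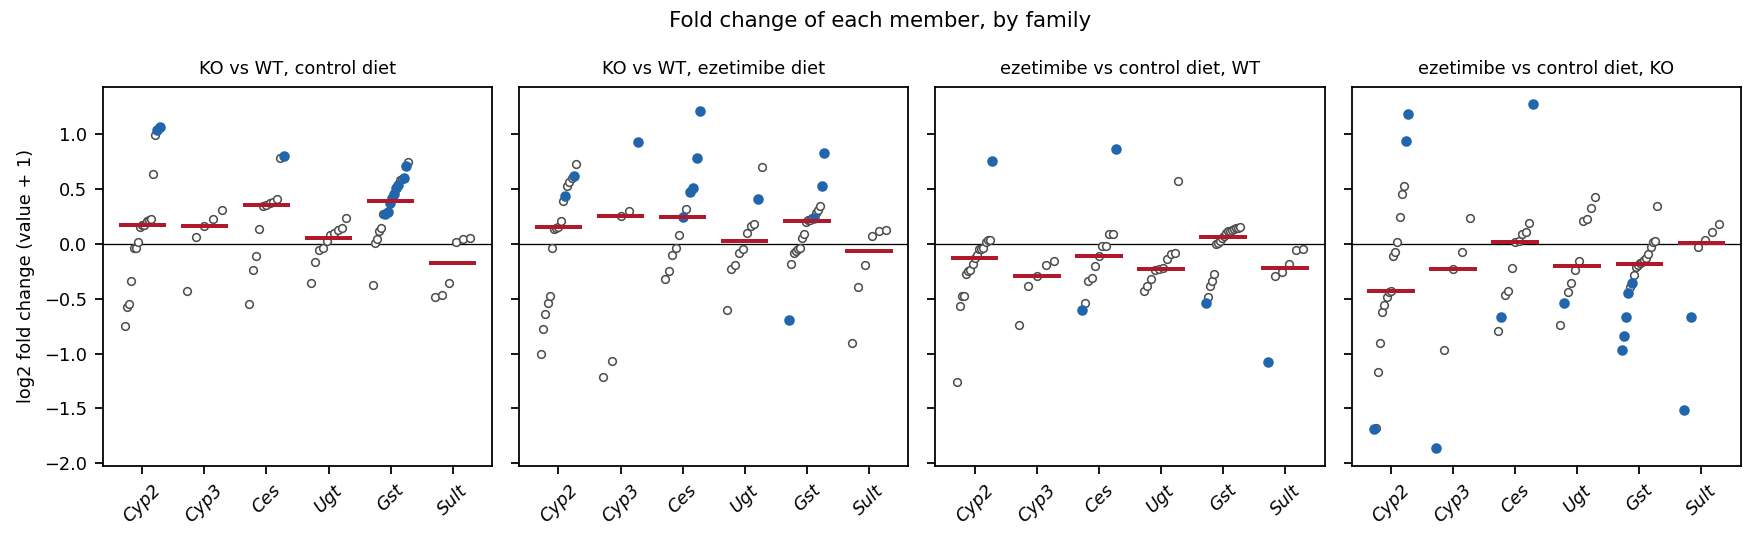
Log2 fold change of each member (points, vertical axis, on the value + 1 scale) in the 4 comparisons of single groups, by family. Filled points have an unadjusted limma p under 0.05 and horizontal bars are family medians. In KO against WT on the control diet the Gst bar stands at 0.40 with 17 of 18 points above 0, and in KO on ezetimibe against control it stands at −0.19. Both comparisons use the KO control libraries.

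Ezetimibe was compared with the control diet next. Averaged over the genotypes, Gsta4 was lower and Ces1g higher on ezetimibe (1 of 67 each way, beside 0.734% of all genes called lower and 1.74% higher), and no other member passed the test. Gsta4 is at mm10 chr9:78182774-78209349 on the plus strand, and none of its 50-base stretches occurs in another gene. It had 526, 473, 518 and 493 normalised counts in WT control and 407, 246, 375 and 379.7 in WT ezetimibe. KO libraries had 903, 889 and 695 without the drug and 403, 285, 472 and 576 with it. Every ezetimibe library lay below every control library of its genotype. The log2 fold change was −0.75 ± 0.139 (SE; limma adjusted p = 0.0103), and Gsta4 passed in each of 25 alternative fits of this comparison.

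Ces1g was higher with ezetimibe by 1.07 ± 0.215 on the log2 scale (limma adjusted p = 0.0172), in each of 25 alternative fits too. In WT the diets overlapped, since replicate 2 on ezetimibe had 102 normalised counts and replicate 3 on control had 110.2, and in KO they did not. Its mean level thus went from 87.9 ± 19.4 (SD, n = 4) in WT control through 152 ± 18.8 (SD, n = 3) in KO control and 168 ± 69.1 (SD, n = 4) in WT ezetimibe to 394 ± 171 (SD, n = 4) in KO ezetimibe. The middle pair did not differ beyond their spread. The interaction of genotype and diet for Ces1g was 0.41 ± 0.431, with a limma adjusted p of 0.818.

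In WT alone no member was called for diet by limma (0.217% of all genes were), edgeR (0.238%) or DESeq2 (0.65%), and 2 were higher and 3 lower at an unadjusted p under 0.05 (3.14% and 1.94% of all genes). The diets did not overlap for 1 higher and 2 lower members (2.26% and 1.21%). By p the higher ones were Ces1g and Cyp2r1 and the lower ones Gsta4, Ces2a and Sult1a1. Cyp2r1 had 11.5, 9.08, 7.21 and 10.2 normalised counts on control and 12.7, 16, 21.7 and 16.7 on ezetimibe, low values that did not overlap (0.75 ± 0.324, limma adjusted p = 0.904). All 5 Cyp3 genes, all 6 Sult genes and 9 of 10 Ugt genes were negative, beside 47.7% of all genes tested that were positive. The medians were −0.29, −0.22 and −0.22, and no Cyp3 or Ugt gene and 1 Sult gene had an unadjusted p under 0.05.

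In KO alone the log2 fold change of Gsta4 was −0.97 ± 0.204 (limma adjusted p = 0.0478). It was the 1 member of 67 called, beside 0.727% of all genes called and 0.294% called lower. The call was lost, at adjusted p between 0.0502 and 0.168, with no filter on low values, with the 2 groups fitted alone, with Dbp in the model, and without KO control replicate 1 or 2 or KO ezetimibe replicate 2 or 3. DESeq2 called Gsta4 and Gstt2 lower and Ces1g higher (8.08% of all genes called), and edgeR called Gsta4 (0.678%). At an unadjusted p under 0.05, 11 members were lower and 3 higher (11.2% and 11.8% of all genes), and 6 did not overlap with ezetimibe lower and 1 with it higher (9.38% and 8.64%). The higher ones were Ces1g (1.28 ± 0.316, limma adjusted p = 0.0563), Cyp2r1 (0.94 ± 0.349, limma adjusted p = 0.130) and the low-level Cyp2c67 (1.18 ± 0.487, limma adjusted p = 0.164). Cyp2r1 had 13.0, 5.43 and 11.9 normalised counts in KO control and 21.4, 18.2, 29.2 and 11.7 in KO ezetimibe, and replicate 4 on ezetimibe lay inside the control range. The lower ones included 5 Gst genes (Gsta1, Gsta4, Gstm3, Gstm7 and Gstt2), and 15 of 18 Gst genes were negative (median −0.19). This comparison shares the KO control libraries with KO over WT on the control diet, where the Gst genes were higher. In WT 12 of 18 Gst genes were positive with ezetimibe (median 0.06).

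Some P450 and conjugating genes did not overlap between the diets in KO, without passing the test. With ezetimibe lower these were among 6 of 67 members, near the share of all genes (9.38%). Their separation is therefore not particular to these enzymes. Cyp3a11, the main drug-oxidising CYP3A enzyme of mouse, had 15089, 10235 and 5581 normalised counts in KO control and 2909, 3745, 1060.2 and 4016 in KO ezetimibe. The diets did not overlap in KO (−1.87 ± 0.776, limma adjusted p = 0.168) and overlapped widely in WT, where it ranged from 2522 to 21340 on control and from 1342 to 18906 on ezetimibe. Sult1a1, the phenol sulfotransferase, had 10.6, 19.9 and 19.5 in KO control and 4.28, 7.50, 2.34 and 7.46 in KO ezetimibe (−1.51 ± 0.488, limma adjusted p = 0.0939). Its exons overlap 61 bases of Sgf29 on the other strand, and whether counting used strand is not given. Sult1d1, the most abundant sulfotransferase per length, had 6738 to 10376 in KO control and 4028 to 6284 in KO ezetimibe (−0.67 ± 0.271, limma adjusted p = 0.159). Ugt2b35 had 317 to 425 and 176 to 293 (−0.54 ± 0.201, limma adjusted p = 0.130). Ces2a, which did overlap, had −0.67 ± 0.281 (limma adjusted p = 0.174). The abundant Ces2e, Ces2c, Cyp3a13, Cyp2d26, Sult1b1, Sult2b1 and Ugt2b34 all had unadjusted p above 0.05 in this comparison.

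Markers of other cells also moved with diet. In KO, 8 of 10 myeloid genes were lower on ezetimibe at an unadjusted p under 0.05 (11.2% of all genes) and 1 was called (limma). Over both genotypes 2 of 12 T and NK cell genes were called higher (1.74% of all genes) and 2 of 8 goblet cell genes lower (0.734%). The goblet cell genes were mixed, with 3 of 8 positive, and 1 higher and 4 lower at an unadjusted p under 0.05. The part of all these cells in the fall of Gsta4 and the rise of Ces1g was not tested. No member was called for the interaction of genotype and diet by limma (0 of all genes), edgeR (0) or DESeq2 (0.035%), and 3 had an unadjusted p under 0.05 (Gstt2, Gstt3 and Gstm7, all negative, limma adjusted p = 0.681 each, beside 3.15% of all genes).

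The members varied more between libraries of the same group than most genes did. The SD inside groups, pooled over the 4 groups on the log2 scale, had a median of 0.39 over the 67 members and 0.26 over all genes tested. Of the members, 15 (22.4%) were among the most variable 10% of all genes, among them 7 of 17 Cyp2 genes and 2 of 5 Cyp3 genes. Several of the 15 were low-level genes, such as Cyp2c29, Cyp2e1 and Cyp2d10 with means of 18.4, 20.8 and 8.02 normalised counts. Others were not, such as Cyp3a11 at 8096 and Cyp2b10 at 1415. Low counts widen this SD, and the members were not compared with genes of the same level. Gst genes had a median of 0.27, with 2 of 18 among them, and no Ces gene was.

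**Figure D4:**
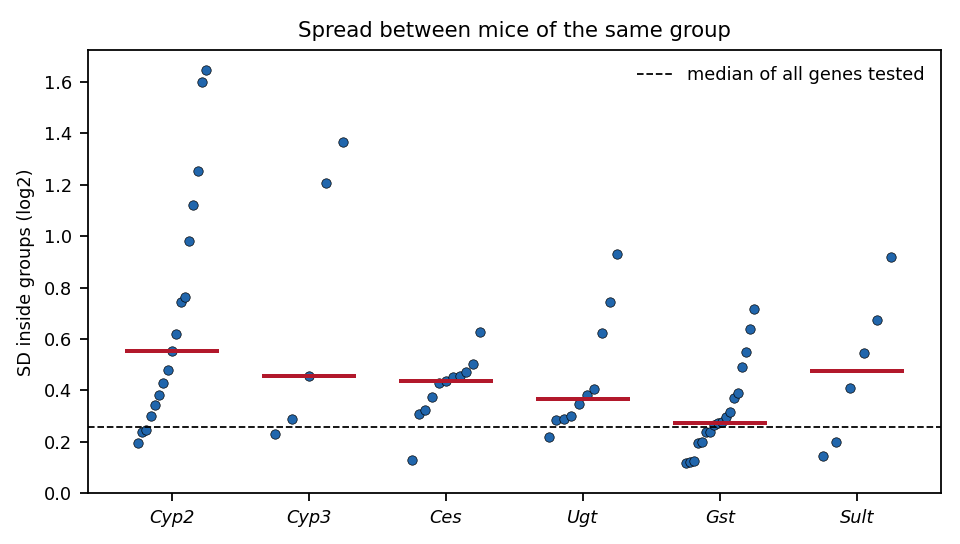
SD of log2(normalised count + 1) inside groups (vertical axis, pooled over the 4 groups) for each member (points), by family. The word mice in the title stands for libraries, which the labels do not say are separate mice. Horizontal bars are family medians and the dashed line is the median of all genes tested, 0.26. The widest spreads are Cyp2c29 at 1.65 and Cyp2e1 at 1.60, both low-level genes with means of 18.4 and 20.8 normalised counts.

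The wide spread of the P450 genes fell on the same libraries for several of them. Cyp2b10, the classical target of the receptor CAR, had 3914, 998, 1802 and 1472 normalised counts in WT control and 1165, 970.0, 2989 and 636 in WT ezetimibe. In KO it had 1312, 1523 and 918 on control and 1030.2, 969, 444 and 1078 on ezetimibe. WT control replicate 1 and WT ezetimibe replicate 3 were thus the 2 highest libraries. The same pair was highest for 4 P450 genes of one cluster on chromosome 19, Cyp2c29, Cyp2c55, Cyp2c65 and Cyp2c66. Cyp2c55 had 520.4, 76.3, 256 and 243 in WT control and 51.7, 142, 1329 and 174 in WT ezetimibe, so that WT ezetimibe replicate 3 was 25.7 times the lowest library. KO ezetimibe replicate 3 was the lowest library for Cyp2b10, Cyp2c29 (at 0), Cyp2c66 and Cyp3a11. Cyp2c65 and Cyp2c66 share 20.6% and 20.4% of their 50-base stretches, mostly with each other. None of these genes was called in any of the 7 comparisons.

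**Figure D5:**
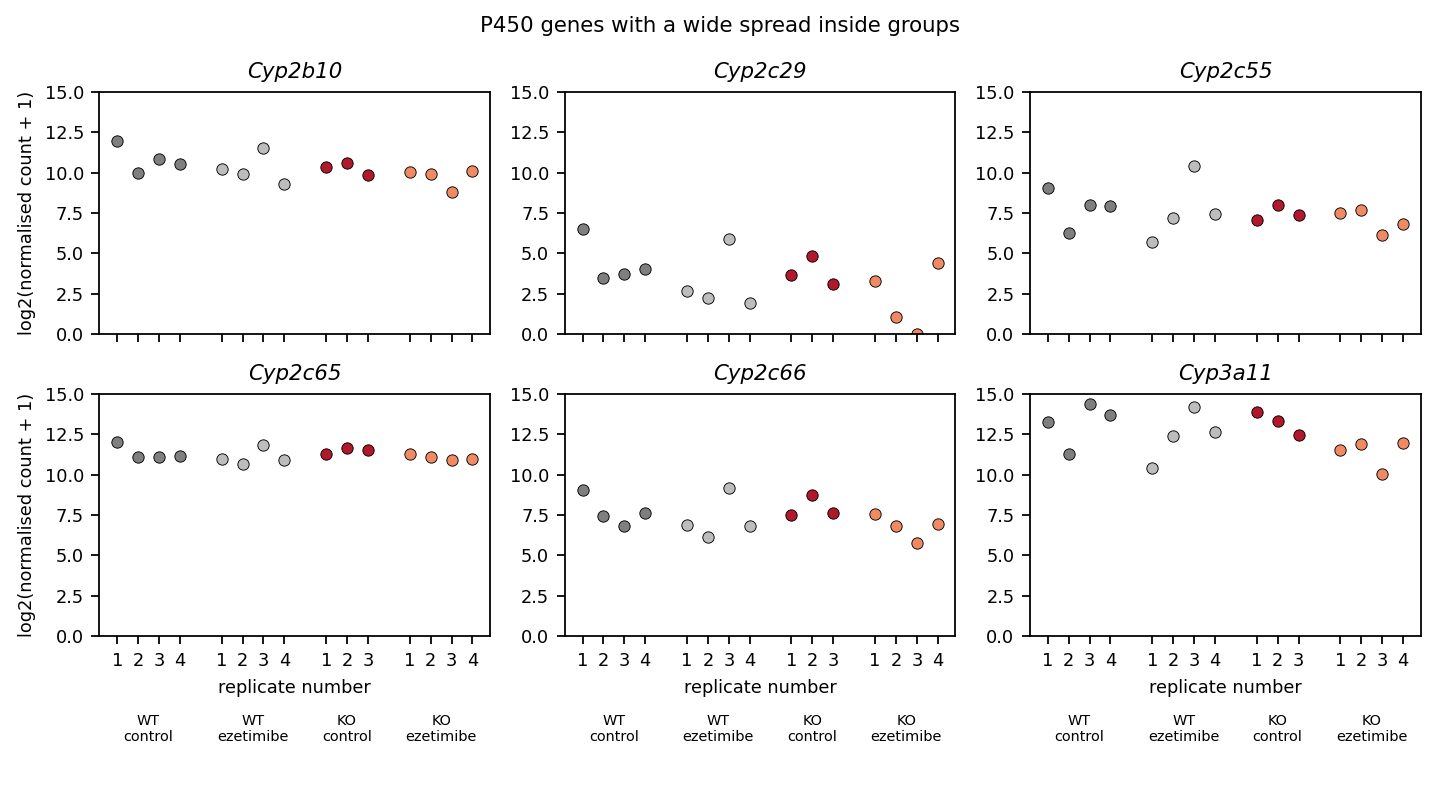
Log2(normalised count + 1) (vertical axis) of 6 P450 genes in each library, ordered by group and replicate number. WT control replicate 1 and WT ezetimibe replicate 3 are the 2 highest points in the panels of Cyp2b10, Cyp2c29, Cyp2c55, Cyp2c65 and Cyp2c66. For Cyp3a11 the highest is WT control replicate 3.

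Cyp2e1, the ethanol-oxidising P450 that hepatocytes and fat cells express strongly, followed other libraries. It had 129.9 normalised counts in WT control replicate 2 and 63.3 in KO control replicate 2, and between 2.86 and 25.3 in the other 13. The first of these was the library high in hepatocyte genes (Alb at 354, against 14.9 to 53.9 elsewhere), and the second had the highest Adipoq, an adipocyte gene, at 40.7. The part of these cells in the Cyp2e1 values was not tested.

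Other genes of the pathway were read from lists beside the families. No gene on them was called in a comparison of single groups, over 13 xenobiotic receptors and regulators, 8 genes of P450 electron transfer and haem, 11 of conjugation cofactor supply, 19 other drug-metabolising enzymes, 9 drug transporters, 11 NRF2 targets, 3 aryl hydrocarbon receptor targets and 15 clock genes. Ppara, the fatty acid receptor, was the 1 gene called in any comparison, lower with ezetimibe over both genotypes (−0.67 ± 0.165, limma adjusted p = 0.0469). It had 388, 339.7, 283 and 262 normalised counts in WT control and 150.0, 159, 235 and 159 in WT ezetimibe, with no overlap, and overlapped in KO.

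The other drug-metabolising enzymes, which include microsomal and further soluble glutathione transferases, were 17 of 19 positive in KO on the control diet (median 0.34, 7 higher at an unadjusted p under 0.05, beside 6.87% of all genes) and 14 of 19 negative with ezetimibe in KO (median −0.38, 8 lower, beside 11.2%). In KO against WT on ezetimibe 10 of 19 were positive (median 0.09), with 0 higher and 1 lower at that p. The 2 smallest p belonged to Mgst3 (−0.45 ± 0.111, limma adjusted p = 0.0563) and the aldo-keto reductase Akr1b8 (−1.53 ± 0.393, limma adjusted p = 0.0578), both for ezetimibe in KO. KO against WT on the control diet and ezetimibe in KO share the KO control libraries. Among the regulators, Nr1h4, the bile acid receptor FXR, had −0.73 ± 0.200 with ezetimibe in KO (limma adjusted p = 0.0644). In the remaining lists no gene had an adjusted p under 0.1 between single groups, apart from Akr1b8, which is also an NRF2 target. The leading genes in KO on the control diet, with log2 fold change and limma adjusted p, were the NRF2 target Me1 (1.05, 0.140), the efflux pump Abcg2 (0.37, 0.244), Gclm, a subunit of the enzyme that makes the glutathione precursor (0.43, 0.301), and Tiparp, an aryl hydrocarbon receptor target (−0.29, 0.352). In KO on ezetimibe they were Cyb5r3 (0.40, 0.233) and Fech (0.25, 0.244), which serve P450 electron transfer and haem synthesis, and the glutathione reductase Gsr (−0.42, 0.268). With ezetimibe in KO they were the peptide transporter Slc15a1 (0.51, 0.194) and the clock gene Nr1d1 (0.65, 0.154).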

How the data were processed

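NEBNext Ultra II libraries were made from TRIzol-extracted total RNA of frozen tissue, per the labels' protocols. The submitters' processing notes name FastQC, STAR 2.6.0c, mm10 and DESeq2. The sources used here do not give the counter, its annotation or its use of strand. The authors deposited a signal, DESeq2-normalised counts of 26844 genes in 15 libraries, per the file headers. All values were whole multiples of what 1 read is worth, so whole reads were recovered (100%, within a tolerance of 0.001). The authors' deposited tables of KO against WT give a mean signal, a log2 fold change, its ratio (fold change), a Wald score and a p-value with its adjusted value, per the file headers.

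Tests used limma-trend (limma 3.58.1) on log2(value + 1), with all 15 libraries in one fit over the 14299 genes with at least 10 in at least 3 libraries, with Benjamini-Hochberg adjustment and a threshold of 0.05. It was tested on simulated data, with changes put into KO control or KO ezetimibe. For KO over WT on the control diet it recovered 21.2% of 1.5-fold, 54.5% of 2-fold and 84.8% of 4-fold changes. For ezetimibe in KO it recovered 22.4%, 48.5% and 88.9%. A member without a call may therefore have changed. The 7 comparisons were the 4 between single groups, the averages for genotype and for diet, and the interaction. The averages use the same libraries as the single comparisons and are not independent of them. Alternatives were another pseudocount (0.5 or 5), no filter or a mean of at least 50, TMM scaling, the compared groups alone, a replicate block, edgeR 4.0.16 and DESeq2 1.42.0 on the whole reads, Dbp or the proliferation markers as a covariate, and leaving out each library. R was 4.3.3 and figures were drawn with matplotlib 3.10.9.

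Members and lists were chosen with earlier results of these data known. Named were members called in any comparison, the 3 highest per exon length and the smallest p of each family in each single comparison, members in the authors' deposited tables, and of each pathway list the genes called or the 2 with the smallest p; others were named after their values were seen. Coordinates and exon lengths came from GENCODE M21 on GRCm38, the assembly of mm10.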

Additional observations from a re-analysis of the deposited data

Results flagged for a closer look

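A library far from the others of its group was seen in 6 of 105 groups of 4 libraries, by the gap to the nearest library over the range of the group (Dixon's test at the 95% level). Chance gives about 1 in 20. Only the 29 members named by the rule above and the family sums were examined. Other members were not, such as Cyp2c55, which had 1329 in WT ezetimibe replicate 3 where the next library had 174. Cyp2c65 had 4214 normalised counts in WT control replicate 1, and the next library had 2275. Cyp2j6 had 3076 in WT ezetimibe replicate 4, below the next at 3832. Cyp3a25 had 5604 in WT ezetimibe replicate 3, and the next had 2379.6. In the same library the Cyp3 genes summed to 45176, and the next library had 23140.5. Ugt2b35 had 409 in WT ezetimibe replicate 1, and the next had 254. Ces2c had 15108 in KO ezetimibe replicate 3, and the next had 9132. Groups of 3 were not examined in this way.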

How the results depend on the processing

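The number of members called is given for each alternative that moved it. For KO over WT on the control diet it was 0, and 2 with the replicate block, 4 with DESeq2, 1 with Dbp as covariate and 0 to 1 without single libraries. On ezetimibe it was 0, and 1 with DESeq2. Averaged over both diets it was 4, and 3 with no filter, 5 with the replicate block, 8 with DESeq2, 9 with Dbp, 0 with the proliferation markers and 0 to 10 without single libraries. For ezetimibe in KO it was 1, and 0 with no filter, with the groups alone or with Dbp, 2 with a mean of at least 50, 3 with the replicate block, 3 with DESeq2, 6 with the proliferation markers and 0 to 2 without single libraries. Averaged over the genotypes the effect of ezetimibe was called for 2, and for 3 with a pseudocount of 5, 4 with the replicate block, 5 with DESeq2, 4 with the proliferation markers and 2 to 4 without single libraries. The counts for ezetimibe in WT and for the interaction stayed at 0 in all 19 and 25 alternatives. DESeq2 called 3.16% of all genes for KO over WT on the control diet, 0.545% on ezetimibe and 8.64% over both diets. For ezetimibe it called 8.08% in KO and 6.73% averaged over the genotypes. For the other alternatives in this paragraph the share of all genes called is not given. Their counts therefore cannot be read as particular to these enzymes. The causes were not tested.

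Of 616 fold changes of named members under an alternative, 1 changed sign: Sult1a1 in KO on the control diet went from −0.46 to 0.84 with the proliferation markers as covariate. Cyp2j6 passed for genotype over both diets in 23 of 25 alternatives, Ces1g and Gsto1 in 21 and Gstm2 in 9. The replicate numbers were not taken as pairs: of 21 same-numbered pairs, 12 correlated above 0.1 (range −0.24 to 0.33), and 2 of 15 libraries correlated best with their own number. Low members such as Cyp2r1 and Sult1a1, under 40 normalised counts in every library, limit what this depth can show.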

Other observations

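Some glutathione S-transferases had their 2 highest libraries in common across diets. Gsta1, Gsta2, Gstm4 and Gstp2 were each highest in KO control replicate 2 and KO ezetimibe replicate 3. Gsta1 shares 89.7% of its 50-base stretches with other genes, Gsta2 64.2% (44.8% with Gsta1) and Gstp2 72.6%, and Gstm4 shares none. Whether the same reads were counted for several of these genes was not tested. Gstm4 had 309 and 343 normalised counts there and 165 to 237 in the other libraries, and Gstp2 had 720.3 and 694, against 440.4 to 647 elsewhere. KO ezetimibe replicate 3 was also the highest library for Ces1g, at 633, and for Ces2c, and the lowest for Cyp3a11 and Cyp2b10.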
